A study of Danio rerio with 12 samples.

Results

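MTSS2 (ENSDARG00000087260) and scinla (ENSDARG00000102415) are 2 of the 35117 zebrafish gene IDs in the count table, and both are among the 9519 genes with enough counts to test. They were chosen from these same values, because both were without counts in the DMut tubes and present in every other genotype. The contrasts of DMut with the other genotypes are therefore given for these 2 genes as a description, with no test. The symbol MTSS2 is written in the capitals of the human gene and stands here for the zebrafish gene with that ID.

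MTSS2 belongs to the I-BAR (inverse BAR domain) proteins, which bind phosphoinositide-rich membrane through a curved domain that favours outward protrusions and bind actin monomers through a WH2 motif. In mice the protein, also called ABBA, is known from radial glia. scinla is named for scinderin, a member of the gelsolin superfamily. Scinderin severs actin filaments and caps their fast-growing ends when calcium rises. Microglia, the macrophages of the brain, use actin remodelling to extend processes, to migrate and to engulf dying cells.

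The cells came from brains of Tg(mpeg1:DsRedx) zebrafish at 3 days post fertilisation, in which a promoter active in macrophages and microglia drives a red fluorescent protein. The 4 groups were DMut fish, mafba mutants, mafbb mutants and siblings, with 3 tubes each. Each tube held 3 hand-picked fluorescent cells from a pool of roughly 10 embryos, and its poly(A) RNA was amplified by Smart-seq2, which makes full-length cDNA. The labels leave DMut unexplained, and it is read as mutant in both genes. They give neither the alleles nor the genotypes of the siblings. They also do not say if tubes of one genotype were dissociated separately, so genotype and dissociation cannot be told apart, and p-values measure the spread between tubes.

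The tubes held 10014888 to 17689266 counts and 5100 to 10521 detected genes. Replicate 3 of mafbb had the fewest detected genes and the highest share of ERCC spike-in counts, 0.798%. Replicate 2 of mafba had the most genes and the lowest share, 0.0946%. Each mafbb tube had fewer detected genes, 5100 to 6141, than any other tube, where the lowest had 7038. Each also had a higher spike-in share, 0.662% to 0.798%, than any other tube, where the highest had 0.452%. This difference goes with genotype, and its part in the mafbb values below was not tested. The reporter's own gene, MPEG1 (ENSDARG00000055290), lay between 1304 and 3006 CPM (counts scaled to a common library size, after TMM adjustment) in all 12 tubes. Another ID with this symbol, ENSDARG00000043093, had 0 to 17 counts in DMut tubes. It had 143 to 1037 counts in mafba tubes, 0 to 740 in mafbb tubes and 203 to 558 in sibling tubes. The 14 IDs of the microglia marker list took 0.126% to 0.168% of gene counts in DMut tubes, 1.31% to 5.54% in mafba tubes, 1.99% to 3.97% in mafbb tubes and 4.45% to 6.38% in sibling tubes. Without apoeb, apoc1 and ccl34b.1 the shares were 0.122% to 0.166% in DMut tubes and 0.404% to 0.781% in sibling tubes. In mafba tubes they were then 0.471% to 0.677%, and in mafbb tubes 0.352% to 0.561%. In DMut, 8 of the 14 were at 0, including apoeb, apoc1 and P2RY12, and 6 were counted. MRC1 was at 0 in DMut and mafba, and MRC1 and c1qa were at 0 in DMut and mafbb. Among those counted in DMut, ccl34b.1 averaged 40.5 CPM there, 6667 CPM in mafba, 7289 CPM in mafbb and 9945 CPM in siblings. In contrast, csf1ra lay at 199 to 482 CPM in DMut and at 116 to 218 CPM in siblings. It lay at 175 to 399 CPM in mafba and at 7.23 to 331 CPM in mafbb. The other receptor gene, csf1rb, lay at 40.5 to 129 CPM in DMut and at 57.2 to 87.3 CPM in siblings. Its range was 50.7 to 86.6 CPM in mafba and 59.7 to 132 CPM in mafbb.

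MTSS2 was without a count in the DMut tubes and well counted in all 9 tubes of the other genotypes. It had 0 counts in each of the 3 DMut tubes. In replicate order, it had 3089, 2161 and 1489 counts in mafba tubes, 2891, 2174 and 413 counts in mafbb tubes, and 1642, 2021 and 3284 counts in sibling tubes. The lowest of these 9 tubes, mafbb replicate 3, still held 413 counts, so DMut overlapped with no other genotype. On the CPM scale the levels were 166, 197 and 102 in mafba tubes, 243, 162 and 23.9 in mafbb tubes, and 111, 206 and 255 in sibling tubes. With 3 counts over the DMut group as the limit that a count of 0 allows (0.0985 CPM), MTSS2 was at least 1572-fold lower in DMut than in mafba, at least 1449-fold lower than in mafbb and at least 1935-fold lower than in siblings. Without DMut replicate 1 the bounds were 919-fold, 847-fold and 1131-fold in the same order, and against mafbb the bound was 942-fold without mafbb replicate 1 and 497-fold with spike-in scaling. These bounds cover counting error only, since the reads carry no molecular identifiers. In tubes of 3 cells, fewer cells that express a gene and less RNA per cell cannot be told apart.

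scinla was likewise without a count in DMut, but among the other genotypes it spread more widely than MTSS2. It had 0 counts in each of the 3 DMut tubes. In replicate order, it had 2742, 413 and 560 counts in mafba tubes, 211, 1035 and 1 counts in mafbb tubes, and 596, 2128 and 2004 counts in sibling tubes. With a single count in mafbb replicate 3, the separation of DMut from the other 9 tubes rests there on 1 read. On the CPM scale the levels were 147, 37.7 and 38.2 in mafba tubes, 17.7, 77.0 and 0.0578 in mafbb tubes, and 40.4, 217 and 156 in sibling tubes. By the same limit, scinla was at least 754-fold lower in DMut than in mafba, at least 321-fold lower than in mafbb and at least 1396-fold lower than in siblings. The bound against mafbb was 90.2-fold without mafbb replicate 2 and 109-fold with spike-in scaling, and the bound against mafba was 385-fold without mafba replicate 1. Without DMut replicate 1 the 3 bounds were 441-fold, 187-fold and 816-fold.

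**Figure D1:**
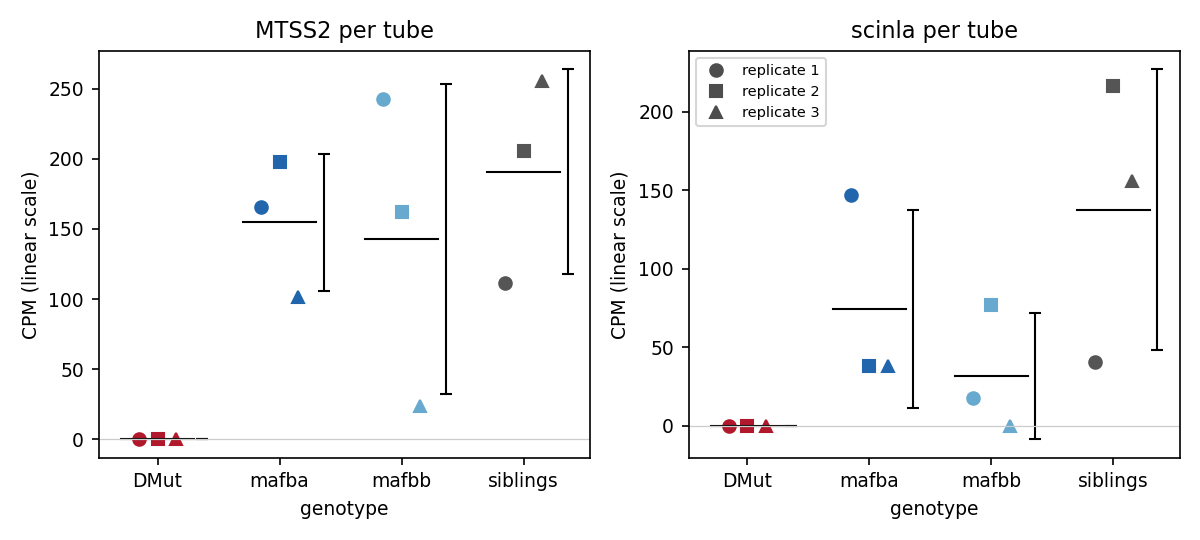
CPM of MTSS2 and scinla (vertical axes) in each of the 12 tubes, grouped by genotype. Points are tubes (circle, square and triangle for replicates 1, 2 and 3), black lines are means and bars are SDs of 3 tubes. All DMut tubes sit at 0, the mafbb tubes of MTSS2 span 23.9 to 243 CPM, and the sibling tubes of scinla span 40.4 to 217 CPM.

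Genes counted in all 9 tubes of mafba, mafbb and siblings numbered 2196, of which 1982 were counted in every DMut tube as well. Another 194 (8.83%) were counted in 1 or 2 DMut tubes, and 20 (0.911%), with MTSS2 and scinla among them, in none. Over all tested genes, 0.998% had every DMut tube below every other tube. The mirrored counts, genes present in all 9 tubes of the other genotypes and absent from 1 genotype, were 0 for mafba, 90 for mafbb and 6 for siblings. The mafbb tubes also had the fewest detected genes, and the part of this in the 90 was not tested.

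MTSS2 was counted in every tube of both single mutants. Mean levels were 155 ± 48.8 CPM in mafba, 143 ± 111 CPM in mafbb and 191 ± 73.1 CPM in siblings (SD, n = 3 tubes each), so the order from high to low was siblings, mafba and mafbb, with ranges that overlapped throughout. The log2 fold change by edgeR's quasi-likelihood test was -0.30 ± 0.95 (SE) in mafba over siblings, with a 95% interval of -2.21 to 1.61 (Benjamini-Hochberg adjusted p = 1 over 9519 genes). It was -0.42 ± 0.95 in mafbb over siblings, with an interval of -2.33 to 1.50 (adjusted p = 1), and 0.12 ± 0.95 in mafba over mafbb, with an interval of -1.79 to 2.03 (adjusted p = 1). Neighbours in that order did not differ beyond the spread of the tubes, and the sign of each of these small differences turned under some other scaling. The intervals leave room for changes of several fold in either direction.

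scinla had means of 74.3 ± 63.0 CPM in mafba, 31.6 ± 40.3 CPM in mafbb and 138 ± 89.5 CPM in siblings (SD, n = 3 tubes each), the same order as MTSS2. The ranges overlapped between each pair of these genotypes. The log2 fold change was -0.89 ± 1.75 (SE) in mafba over siblings, with a 95% interval of -4.42 to 2.65 (edgeR adjusted p = 1). It was -2.12 ± 1.81 in mafbb over siblings, with an interval of -5.78 to 1.53 (edgeR adjusted p = 0.718), and 1.23 ± 1.76 in mafba over mafbb, with an interval of -2.33 to 4.79 (edgeR adjusted p = 1). None of these 3 contrasts passed, and over all genes 0% passed in mafba against siblings, 0.0735% in mafbb against siblings and 0.042% in mafba against mafbb. An exact permutation test of the sum of squares between genotypes, on log2(CPM + 1), covered the 1680 assignments of the 9 tubes to the 3 genotypes. This permutation test gave p = 0.168 for scinla and p = 0.754 for MTSS2 (0.336 and 0.754 adjusted over the 2 genes). Its smallest possible p was 0.00357. The permutation p of scinla was 0.00714 without mafbb replicate 2, the highest mafbb tube, and 0.0286 with spike-in scaling.

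Over the 9 tubes of mafba, mafbb and siblings, log2(CPM + 1) of MTSS2 and scinla gave Pearson's r of 0.83 (exact permutation p = 0.0304) and Spearman's rho of 0.45 (exact permutation p = 0.230). This was the only pair of genes given a permutation p. The r of each of them with all tested genes was also computed, and the highest values are described below. Without the 2 tubes farthest from the median of MTSS2, mafbb replicate 3 and mafba replicate 3, r was 0.0995 (exact permutation p = 0.836, n = 7). Leaving out mafbb replicate 3 alone gave r of 0.238 (exact permutation p = 0.550, n = 8), so the relation rests on that tube, which held the lowest level of both genes.

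The relatives scinlb and mtss1 had higher levels in every DMut tube than in any other tube, though neither passed edgeR's test. scinlb (ENSDARG00000058348), the paralogue of scinla, had 17381, 6854 and 14450 counts in DMut replicates 1 to 3. In replicate order, it had 3, 852 and 4258 counts in mafba tubes, 0, 0 and 1600 counts in mafbb tubes, and 2, 909 and 960 counts in sibling tubes. All counts on the scinla and scinlb pair in DMut, 38685 in sum, were thus on scinlb. Of the other 9 tubes, mafbb replicate 3 also had nearly all of its counts on scinlb, at 1600 against 1 on scinla. In 4 tubes (mafba replicate 1, mafbb replicates 1 and 2, and sibling replicate 1) there were at most 3 counts on scinlb and at least 211 on scinla. The remaining tubes, replicates 2 and 3 of mafba and of siblings, had at least 413 counts on scinla and at least 852 on scinlb. Mean levels of scinlb were 1244 ± 388 CPM in DMut, 123 ± 150 CPM in mafba, 30.8 ± 53.4 CPM in mafbb and 55.7 ± 49.0 CPM in siblings. The means in DMut were 10.1-fold those in mafba, 40.4-fold those in mafbb and 22.3-fold those in siblings. All mafbb counts came from replicate 3, without which mafbb had none. The log2 fold change of DMut over siblings was 4.48 ± 3.24 (SE), with a 95% interval of -2.94 to 11.90 (edgeR adjusted p = 0.854). Against mafba it was 3.34 ± 3.07 (edgeR adjusted p = 1) and against mafbb 5.33 ± 3.37 (edgeR adjusted p = 0.467). With each tube left out the value against mafbb ran from 4.75 to 16.93, the highest without mafbb replicate 3, where mafbb is at 0 and the fitted value is no bound.

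mtss1 (ENSDARG00000059604), another I-BAR gene, whose protein is also called missing-in-metastasis, had 2698, 835 and 1322 counts in DMut replicates 1 to 3. In replicate order, it had 1165, 406 and 285 counts in mafba tubes, 548, 17 and 0 counts in mafbb tubes, and 803, 2 and 0 counts in sibling tubes. Every DMut tube had more CPM than any other tube, and 1 tube carried most of the counts in mafbb and in siblings. Mean levels were 151 ± 58.0 CPM in DMut, 39.7 ± 21.6 CPM in mafba, 15.8 ± 26.2 CPM in mafbb and 18.2 ± 31.3 CPM in siblings. The means in DMut were 3.81-fold those in mafba, 9.60-fold those in mafbb and 8.31-fold those in siblings. The log2 fold change of DMut over siblings was 3.05 ± 2.16 (SE), with a 95% interval of -1.31 to 7.41 (edgeR adjusted p = 0.745), and the alternatives gave adjusted p values from 0.0211, by limma voom with sample weights, to 1, by DESeq2.

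**Figure D2:**
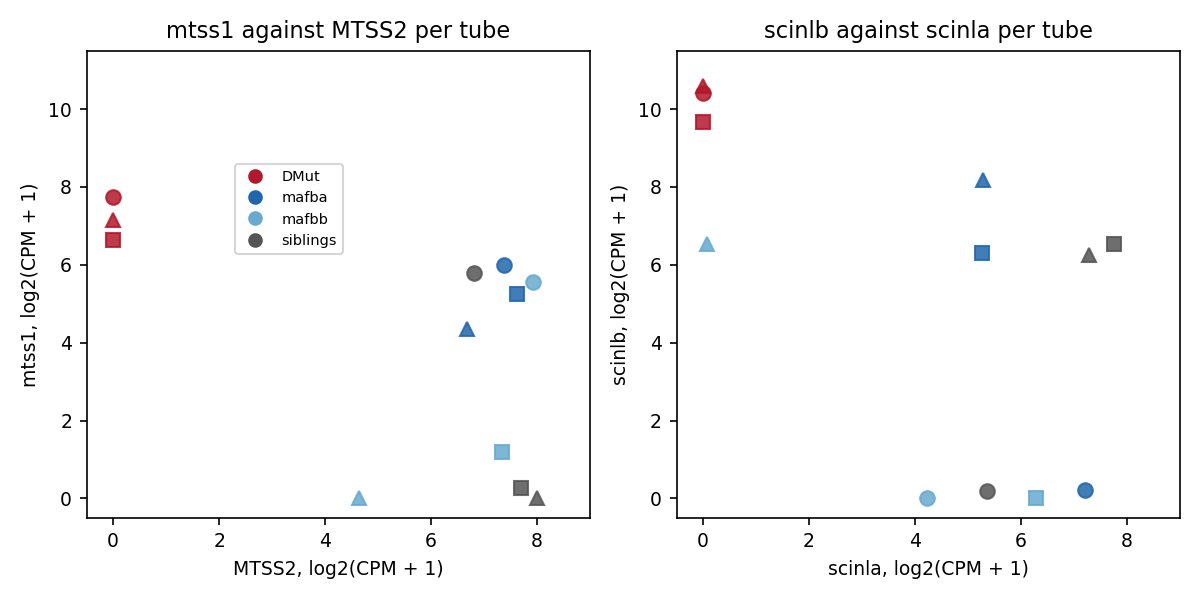
Level of mtss1 against MTSS2 (left) and of scinlb against scinla (right), both axes log2(CPM + 1), with 1 point per tube, colour for genotype, and circle, square and triangle for replicates 1, 2 and 3. The 3 DMut tubes lie at 0 on both horizontal axes and highest on both vertical ones, at 98.4 to 213 CPM of mtss1 and 808 to 1551 CPM of scinlb, and on the right mafbb replicate 3 lies near them on the horizontal axis only.

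Of all tested genes, 2.74% had every DMut tube above every other tube, as mtss1 and scinlb did. Without MTSS2 and scinla, 41 genes of 4 lists of actin-binding genes were tested, and of these SVIL, LCP1 and flna also did. flna met the count filter only through DMut, where all 3 tubes exceeded it against 1 of the other 9 tubes, so nothing is read from the number of these genes. None of the 41 had every DMut tube below every other tube. The handling of reads that match both members of a related pair is not stated by the labels, and neither is the strand setting of the counting.

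Of the I-BAR family, 5 of 9 IDs were detected and 3 tested, MTSS2 included. The other 2 tested genes, mtss1 and baiap2l2b, gave 0 calls in DMut against siblings, where 0.714% of all genes passed. Their median log2 fold change was 3.90 (2.35 with baiap2l2b at its bound from the count floor), against 0.07 over all genes, but it was -1.78 in DMut over mafba and -2.01 in DMut over mafbb. It rests on these 2 genes, and baiap2l2b averaged 0.250 CPM in DMut, 11.7 CPM in mafba and 40.4 CPM in mafbb. baiap2l2b (ENSDARG00000060933) had 0, 0 and 7 counts in DMut replicates 1 to 3, 656, 0 and 0 in mafba tubes, 144, 866 and 774 in mafbb tubes, and 0 in every sibling tube. It was thus counted in all mafbb tubes and in none of the siblings, a level at least 505-fold higher in mafbb (edgeR adjusted p = 0.263). BAIAP2 (ENSDARG00000062799), known as IRSp53, a link from Rac and Cdc42 to actin, had 90 counts in DMut replicate 2, 405 in sibling replicate 1 and 0 elsewhere. A second ID with the symbol MTSS2, ENSDARG00000028943, had 193 counts in sibling replicate 2 and 0 elsewhere, so neither of these was tested.

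Of the gelsolin superfamily, 9 of 14 IDs were detected and 6 tested, scinla included. The other 5 gave 0 calls in DMut against siblings, with a median log2 fold change of 0.62 and all 5 values above 0. Over all genes, 4930 of 9519 values were above 0. Of the 5, GSN lay at 0.085 ± 3.47 (SE) and FLII at 0.61 ± 2.27, and the fitted value of SVIL is no bound. SVIL (ENSDARG00000055075), which encodes supervillin, a link between myosin, actin and membrane, had 501, 377 and 143 counts in DMut replicates 1 to 3. In replicate order, it had 0, 85 and 174 counts in mafba tubes, 26, 0 and 0 counts in mafbb tubes, and 0 in every sibling tube. The level in DMut was at least 414-fold higher than in siblings (edgeR adjusted p = 0.393), with an adjusted p of 0.00462 by limma voom and 0.00969 by DESeq2, and up to 0.611 under the other alternatives. CAPG (ENSDARG00000099672), a macrophage protein that caps filaments without severing them, was abundant in every tube. It averaged 1518 ± 646 CPM in DMut, 972 ± 166 CPM in mafba, 882 ± 291 CPM in mafbb and 985 ± 311 CPM in siblings, a log2 fold change of 0.62 ± 0.34 (SE) for DMut over siblings (edgeR adjusted p = 0.426).

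FLII (ENSDARG00000059701), the flightless-1 gene, averaged 51.0 ± 16.3 CPM in DMut, 56.3 ± 31.9 CPM in mafba, 0.749 ± 0.664 CPM in mafbb and 33.5 ± 31.2 CPM in siblings. Its tubes were low in mafbb and in sibling replicate 3, and the contrast of DMut with mafbb did not pass (log2 6.07 ± 2.82, edgeR adjusted p = 0.240). GSN, gelsolin itself, was patchy. One ID, ENSDARG00000011459, had counts in 2 DMut tubes, 2 mafba tubes, 0 mafbb tubes and 1 sibling tube, and the other, ENSDARG00000045262, had at most 37 counts in a tube. VIL1 (ENSDARG00000040466) and AVIL (ENSDARG00000059342), the villin and advillin genes, were counted mainly in sibling replicate 1, at 38 and 363 counts.

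**Figure D3:**
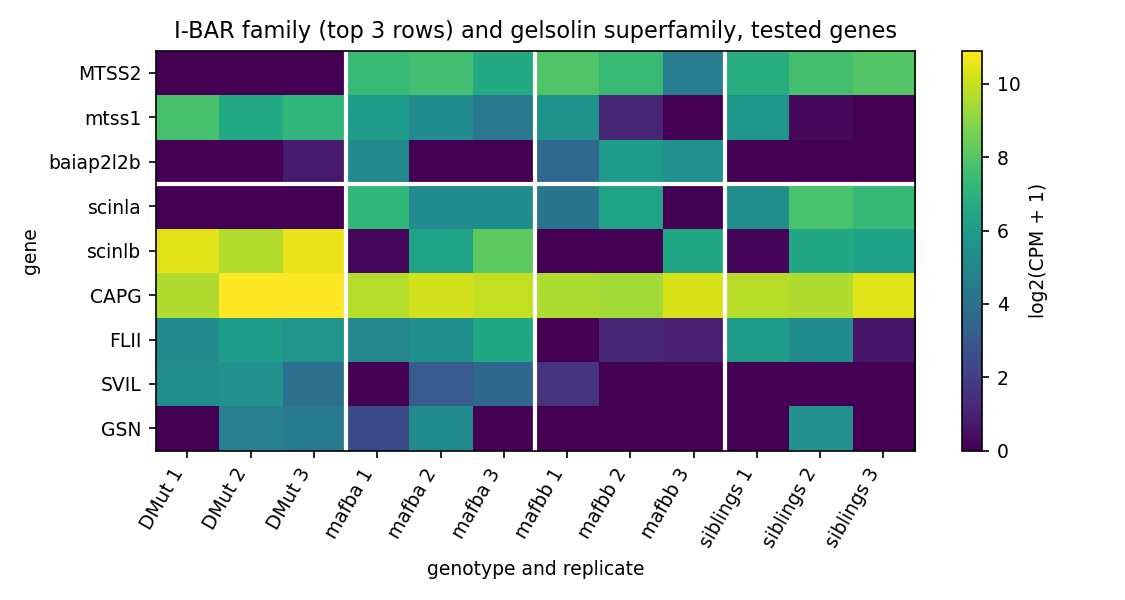
Level per tube, as colour on a log2(CPM + 1) scale, of the 9 tested I-BAR (top 3 rows) and gelsolin superfamily genes, with tubes in columns by genotype. MTSS2 and scinla are at 0 in DMut, where scinlb (1244 CPM), mtss1 (151 CPM) and SVIL (33.1 CPM) have their highest means, and GSN is the ID ENSDARG00000011459.

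Of 19 tested genes for actin turnover and capping, 0 passed against siblings and 3 had an unadjusted p under 0.05, with a median log2 fold change of 0.02. Over all genes 0.714% passed and 12.5% had such an unadjusted p, so these counts were near the background. LIMK2, which is among the 3, met the count filter only with its DMut tube included. tmsb4x (ENSDARG00000077777), which encodes the monomer-binding thymosin beta, averaged 6777 ± 1806 CPM in DMut and 4280 ± 947 CPM in siblings (log2 0.66 ± 0.22, edgeR adjusted p = 0.275). It averaged 5470 ± 1272 CPM in mafba and 6154 ± 418 CPM in mafbb. In DMut over these 2 genotypes its log2 fold change was 0.31 ± 0.22 and 0.14 ± 0.22. CAP1 (ENSDARG00000016350), which recycles actin monomers with cofilin, averaged 130 ± 68.6 CPM in DMut and 368 ± 131 CPM in siblings (log2 -1.50 ± 0.56, edgeR adjusted p = 0.393). The kinase gene LIMK2 (ENSDARG00000005104) was counted in 1 DMut tube and no sibling tube (log2 0.06 ± 3.43 in DMut over mafba). The phosphatase gene SSH1 (ENSDARG00000056780) was counted in no DMut tube, 1 sibling tube and 2 mafba tubes (edgeR adjusted p = 0.393 each against siblings). Both enzymes act on cofilin.

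Of 15 tested crosslinkers and coronins, 1 rose in DMut against siblings and 0 fell (0.252% and 0.462% of all genes), and 5 had an unadjusted p under 0.05 (12.5% of all genes did), with a median log2 fold change of 0.68. Of the 5, dbn1 and flna met the count filter only through DMut, so nothing is read from that number or from the median. The gene that rose was LCP1 (ENSDARG00000023188), which encodes L-plastin, the actin bundler of leukocytes. It ranged from 3243 to 3382 CPM in DMut tubes, 1683 to 2507 CPM in mafba tubes, 1421 to 2212 CPM in mafbb tubes and 1388 to 1999 CPM in sibling tubes. Its mean was 2.04-fold higher in DMut than in siblings, a log2 fold change of 1.03 ± 0.26 (SE, edgeR adjusted p = 0.0400), higher in 3 of 3 tubes. The call ended without any DMut or sibling tube, without mafba replicate 1 and without mafbb replicates 1 or 2 (adjusted p = 0.0619 to 0.222), and under 7 of the 12 other alternatives. These were DESeq2 size factors (0.0541), library size alone (0.118), spike-in scaling (0.399), the filter at CPM above 10 (0.109), robust=FALSE (0.210), the compared groups alone (0.1497) and DESeq2 (1). The pan-myeloid list took 0.787% to 0.986% of gene counts in DMut tubes and 0.602% to 0.942% in sibling tubes. In mafba tubes it took 0.737% to 1.08%, and in mafbb tubes 0.872% to 1.07%. These shares include the counts of LCP1 itself, which is on the list, so they do not show how the other markers differ. The part of this list in the result was not tested.

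Other genes of this list with a small p did not pass. dbn1 (ENSDARG00000069113), which encodes drebrin, averaged 43.5 ± 36.9 CPM in DMut and was at 0 in every sibling tube. flna (ENSDARG00000074201), which encodes a filamin, averaged 26.3 ± 36.2 CPM in DMut and was also at 0 in every sibling tube (edgeR adjusted p = 0.393 each). dbn1 was also counted in both single mutants. Its log2 fold change was 3.32 ± 3.63 (SE) in DMut over mafba and 1.99 ± 3.44 in DMut over mafbb. TAGLN (ENSDARG00000033466), which encodes transgelin, averaged 46.4 ± 24.7 CPM in DMut and 230 ± 202 CPM in siblings (log2 -2.31 ± 1.13, edgeR adjusted p = 0.393). ABLIM1 (ENSDARG00000045064), an actin-binding LIM gene, was at 0 in every DMut tube and at 13.6 ± 23.5 CPM in siblings (edgeR adjusted p = 0.393). Neither low level was particular to DMut. In DMut over mafbb the log2 fold change was 0.03 ± 1.08 (SE) for TAGLN and 0.0 for ABLIM1. In mafbb over siblings that of TAGLN was -2.34 ± 1.13 (edgeR adjusted p = 0.263).

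**Figure D4:**
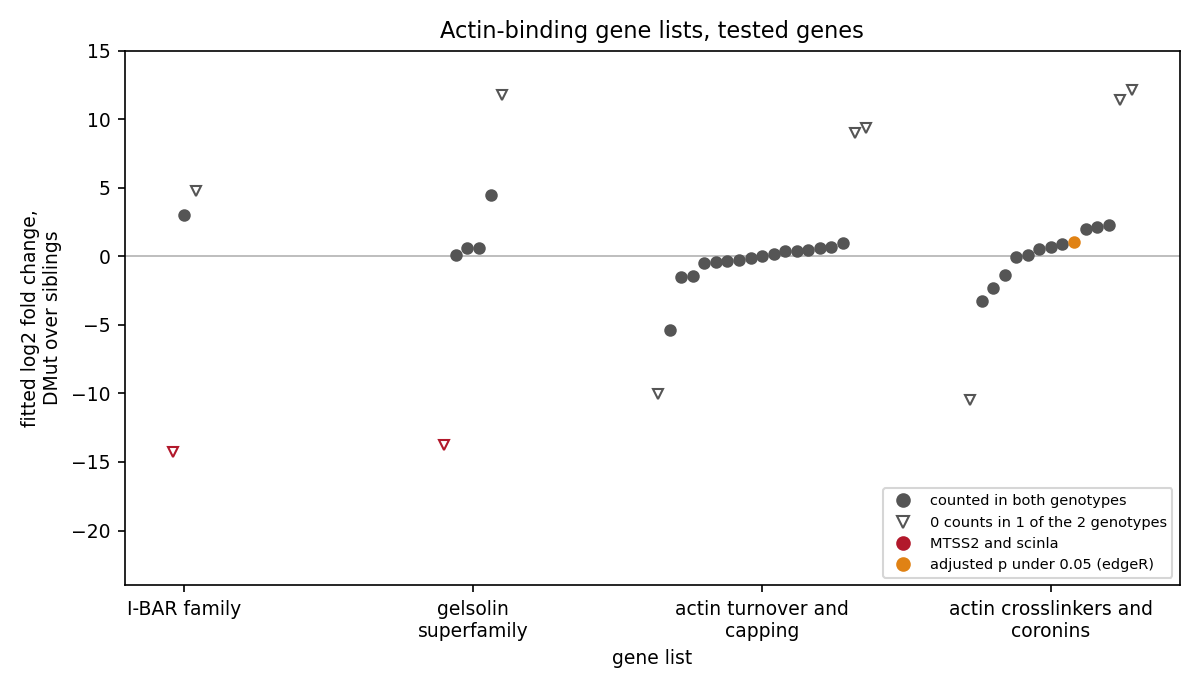
Fitted log2 fold change of DMut over siblings (vertical axis) for the tested genes of 4 lists of actin-binding genes. Open triangles are genes with 0 counts in 1 of the genotypes, whose fitted value is no bound. LCP1 (orange, 1.03) is the called gene, and MTSS2 and scinla (red) were chosen for their absence from DMut.

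DMut was also set against each single mutant. Against mafba, 0.399% of all genes passed and 0 of the 41 list genes did. Against mafbb, 0.725% of all genes passed and 1 of the 41 did, CORO1A (ENSDARG00000054610), the coronin of leukocytes. It averaged 1887 ± 382 CPM in DMut and 738 ± 330 CPM in mafbb, a log2 fold change of 1.35 ± 0.31 (SE, edgeR adjusted p = 0.0204), higher in 3 of 3 tubes. This difference was not particular to DMut. The log2 fold change was 0.08 ± 0.31 in DMut over mafba and 0.55 ± 0.31 in DMut over siblings (edgeR adjusted p = 0.450 over siblings). It was 1.27 ± 0.31 in mafba over mafbb (edgeR adjusted p = 0.0820) and -0.80 ± 0.31 in mafbb over siblings (edgeR adjusted p = 0.263). The call ended without mafbb replicate 2 (0.0906), mafbb replicate 3 (0.171) or DMut replicate 2 (0.142), and under 8 of the 12 other alternatives. These were TMMwsp (0.252), library size alone (0.0830), the filter at CPM above 10 (0.0657), robust=FALSE (0.130), limma voom (0.120), DESeq2 (1), the compared groups alone (0.111) and leaving out mafba replicate 2 with mafbb replicate 3 (0.179). The 3 contrasts with DMut share its tubes, so their values are not independent.

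Markers of other cells differed between the same tubes. The 6 detected neutrophil markers were all counted in DMut, at 0.0445% to 0.0626% of gene counts, against 0.0151% to 0.0379% in mafba, 0.0266% to 0.0318% in mafbb and 0.0182% to 0.0278% in siblings, where lyz, mmp13a and npsn were at 0 in all 3 genotypes. The 6 detected epidermal and metaphocyte markers were also all counted in DMut, at 0.0349% to 0.0404%, against 0.00101% to 0.0380% in mafba with 2 of 6 counted, 0% to 0.00686% in mafbb with 1 of 6, and 0.00130% to 0.00649% in siblings with 3 of 6. The markers lyz, mmp13a and npsn, and epcam, krt4 and cd9b of the epidermal list, were counted in DMut alone. They are among the detected markers only through DMut, so nothing is read from the number of markers counted. Radial glia markers took 0.0266% to 0.0343% in DMut, 0.274% to 0.810% in mafba, 0.178% to 0.317% in mafbb and 0.358% to 0.937% in siblings. Without GLUL the radial glia shares were 0.0142% to 0.0186% in DMut, 0.00858% to 0.0170% in mafba, 0.0126% to 0.0229% in mafbb and 0.000421% to 0.00431% in siblings, so DMut overlapped with both single mutants. FABP7 and SLC1A2 were at 0 in DMut and in siblings. The part of these cell types in the values of MTSS2, scinla, scinlb and mtss1 was not tested.

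Over all 12 tubes, the genes most like MTSS2 by Pearson's r on log2(CPM + 1) were apoc1 (0.98), apoeb (0.98), stab1 (0.96), ccl34b.1 (0.96) and selenop (0.96). For scinla they were PLRG1 (0.91), PCBD1 (0.91), CCNY (0.90), acvrl1 (0.90) and MAFA (0.89). The DMut zeros shape these values. Over the 9 tubes of mafba, mafbb and siblings, the leading genes for MTSS2 were SLC35A1 (0.97), SDF4 (0.96), ddx3xa (0.95), mrpl39 (0.95) and CHD7 (0.95). For scinla they were KMT2C (0.95), PLRG1 (0.94), LPCAT2 (0.94), GALNT1 (0.93) and COQ10B (0.93). None of the leading genes of MTSS2 over 12 tubes led over 9, and 1 of those of scinla, PLRG1, did. These are descriptions, picked as the highest of all tested genes over tubes that share libraries and depth.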

How the data were processed

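Smart-seq2 libraries of 12 tubes were analysed as 4 genotypes of 3 tubes. The authors deposited raw counts, whole numbers per gene and tube. The submitters' processing notes name Trim Galore, STAR and the build GRCz11 (danRer11). Versions, the counting tool and the annotation are not stated. No genome was used, and no positions or sequences are printed. The 92 spike-in entries of 35209 were left out of tests. Counts of the mutated genes are not reported here.

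Genes passing filterByExpr (minimum count 10, minimum total 15; 9519) were scaled by TMM and fitted over all 12 tubes in edgeR 4.0.16 (R 4.3.3, robust quasi-likelihood). The fit was checked on simulated counts, with recovery required only at a dispersion of 0.05, far below that of these data. A gene was called at an adjusted p (Benjamini-Hochberg, over all tested genes) below 0.05. The SE of a log2 fold change was back-calculated, as its absolute value divided by the square root of the quasi-likelihood F statistic. The 95% intervals were built from this SE and a t distribution. Dispersion was high, 4.00 in common (coefficient of variation 2.00), and depth was 10014888 to 17689266 counts. Alternatives used limma 3.58.1 and DESeq2 1.42.0 and the settings named in the closing section. Permutations were enumerated in Python 3.11.15 with numpy 2.4.6, and scipy 1.17.1 gave the ranks and the adjustment of the permutation p-values.

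The 2 genes, the lists and the tests were chosen with earlier results of these data known. Lists were matched by symbol regardless of case, cell-marker lists also after dropping a final a or b. Every detected member of the I-BAR and gelsolin lists is named, with called members or else the 4 of smallest p from the others, and the 5 genes most alike.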

Additional observations from a re-analysis of the deposited data

How the results depend on the processing

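The absence of MTSS2 and scinla from DMut is a count of 0, and the bounds computed from it depend on the tubes and the scaling. With a floor of 1 count in place of 3, the log2 level ratios were -12.20 (DMut over mafba) and -12.50 (DMut over siblings) for MTSS2, and -11.14 and -12.03 for scinla. Against mafbb it was -12.09 for MTSS2 and -9.91 for scinla. Leaving out each tube gave, against mafba, mafbb and siblings in turn, -10.85 to -9.84, -11.00 to -9.73 and -11.19 to -10.14 for MTSS2, and -9.88 to -8.59, -8.91 to -6.49 and -10.88 to -9.67 for scinla. With spike-in scaling the ratio to mafbb was -8.96 for MTSS2 and -6.77 for scinla.

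Among mafba, mafbb and siblings, 0 of the 6 contrasts of the 2 genes passed under any alternative. Signs turned for MTSS2 alone. Over siblings it was 0.16 in mafba with ERCC spike-in scaling, and in mafbb 0.047 with TMMwsp scaling and 0.085 without mafba replicate 2 and mafbb replicate 3. In mafba over mafbb it was -0.024 with DESeq2 size factors, -0.27 with TMMwsp, -0.066 with library size alone, -0.022 by DESeq2 and -0.60 without those 2 tubes. Leaving out each tube gave -1.04 to 0.085 in mafbb over siblings and -0.38 to 0.74 in mafba over mafbb. The cause was not tested. Scaling to the spike-ins moved the median log2 fold change of all genes by 0.41 in DMut over siblings, 1.78 in DMut over mafbb, 0.48 in mafba over siblings, -1.38 in mafbb over siblings and 1.85 in mafba over mafbb. TMMwsp moved it by -0.37, 0.24 and -0.39 in DMut over mafbb, mafbb over siblings and mafba over mafbb, and library size alone by -0.24 and -0.18 in DMut over mafbb and mafba over mafbb. The permutation p of scinla was 0.0286 with spike-in scaling and 0.00714 to 0.421 with each tube left out. The r of the 2 genes was 0.238 to 0.944 with each tube left out.

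Called genes in DMut against siblings numbered 68, and 115 with no filter, 36 with robust=FALSE, 423 by limma voom, 866 by DESeq2 and 44 to 86 with each tube left out. In DMut against mafba they numbered 38, and 77, 22, 173, 480 and 23 to 41 in the same order. In DMut against mafbb they numbered 69, and 134, 43, 480, 1711 and 52 to 87, with 366 under spike-in scaling. In mafba against siblings edgeR called 0 (744 with an unadjusted p under 0.05), and 3 with spike-in scaling, 12 with no filter, 47 by limma voom, 592 by DESeq2, 3 with the compared groups alone, 5 without those 2 tubes and 0 to 2 with each tube left out. In mafbb against siblings 7 were called, and 70, 36, 216, 1619, 24, 15 and 4 to 24 in the same order, with 2 at CPM above 10 in 3 tubes and 3 with robust=FALSE. In mafba against mafbb 4 were called, and 264, 40, 239, 1509, 13, 17 and 3 to 29, with 12 under robust=FALSE.

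A pairing of the tubes by replicate number was not shown. With a coefficient of variation of 2.00 between tubes, a weak shared effect could be missed. Deviations of same-numbered tubes correlated at -0.026 to 0.036, 0 of 18 pairs exceeded 0.1, and 6 of 12 tubes were most like a tube of their own number. With the replicate block 123, 76, 125, 11, 22 and 26 genes were called in those 6 contrasts, more than without it in each.

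Of the lists in DMut against siblings, the I-BAR family and the gelsolin superfamily had 0 calls, and 1 each by limma voom and by DESeq2. Actin turnover and capping had 0, and 1 with no filter, 1 with the replicate block, 2 by limma voom and 3 by DESeq2. Crosslinkers and coronins had 1, and 0 with DESeq2 size factors, library size alone, spike-in scaling, the CPM filter, robust=FALSE or the compared groups alone, 3 by limma voom and by DESeq2, and 0 to 1 with each tube left out. CORO1A in DMut over mafbb stayed positive (log2 0.90 to 3.03) and lost its call in 8 of 12 alternatives. DESeq2 gave scinlb no adjusted p. With 3 tubes of 3 cells, a group in which 1 tube holds most counts limits what any of these tests can show.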
